A study of Mus musculus with 6 samples.

Results

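The genes of respiratory complex I were followed in brown adipose tissue, a fat depot that makes heat, of Cd36 null and wild type mice. Members were all probes whose symbol in the platform annotation starts with Nduf, the prefix shared by nuclear-encoded subunits and several assembly factors. They came to 68 of the 45267 probes in the authors' table, and to 44 of 19056 named genes. The Cd36 null group and the wild type group each held 3 samples of total RNA from male C57BL6J mice of 3 months that had been fasted overnight, and each sample was read on 1 Illumina bead array. Cd36 is a surface receptor through which cells import fatty acids, and the series text writes the mutant genotype as Cd36-/-. The sources used here do not say how the allele was made. The labels do not tie the numbered samples to separate animals. The p-values therefore rest on the spread among samples, not on a known spread among animals, and part of that spread may be technical. The limma fit also draws the spread of each probe toward that of all tested probes.

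Complex I, NADH:ubiquinone oxidoreductase, is the entry point of NADH electrons into the respiratory chain and pumps protons across the inner mitochondrial membrane. Its matrix arm holds the NADH-oxidising and quinone-reducing modules, and its membrane arm holds the proton pumps, whose core subunits are encoded by mitochondrial DNA. Around these core subunits sits a shell of nuclear-encoded accessory subunits, and the complex is put together from modules by dedicated assembly factors. In brown fat the chain feeds a proton gradient that the uncoupling protein Ucp1 discharges as heat.

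Between 18139 and 19199 probes were detected on the Cd36 null arrays and between 16929 and 17035 on the wild type arrays. Pairs of arrays correlated over the tested probes at 0.970 to 0.982 within the null group, at 0.978 to 0.988 within the wild type group and at 0.955 to 0.966 between groups. Among all 17912 tested probes, 897 rose (5.01%) and 399 fell (2.23%) with Cd36 loss at a limma adjusted p under 0.05. Higher probes made up 69.2% of those changed, and 85.6% with median scaling. The tissue carried its defining markers, with all 10 listed brown adipocyte genes detected, of which Elovl3 rose (2.53 log2) and Prdm16 fell (-0.71 log2). Ucp1 averaged 14.78 ± 0.05 log2 in null and 14.90 ± 0.08 log2 in wild type tissue (SD, n = 3 each, limma adjusted p = 0.704). The 1 probe named Cd36 lay at background, with detection on none of the null arrays and on 1 wild type array, and could not check the genotype labels. All values are limited in precision by having 3 arrays a genotype.

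Of the 44 member genes, 42 could be tested, through 62 probes that were each detected on all 6 arrays. The gene values below come from the brightest tested probe of each gene. No complex I gene passed the test between genotypes by this measure, with 0 of 42 at a limma adjusted p under 0.05, against 7.84% of the 10151 named genes tested (5.73% higher and 2.11% lower). In the authors' deposited log2 values 0 of 42 passed as well, against 9.25% of named genes. At an unadjusted p under 0.05 there were 5 of 42, against 22.6% of all named genes. Differences ran from -0.51 to 0.20 log2, Cd36 null minus wild type, and their standard errors from 0.15 to 0.23. The 95% intervals, which are not adjusted for the number of genes, reached no lower than -0.92 and no higher than 0.64 log2. For each of the 42 brightest probes they left out a change of 1 log2 unit. The intervals of the second probes of Ndufb8 and Ndufaf5 reached down to -1.13 and -1.12, and did not leave out such a fall.

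The differences leaned to the lower side. In null tissue 36 of 42 genes had a lower mean than in wild type and 6 a higher one, where 53.9% of all named genes were lower. The median difference was -0.15 log2 for the complex I genes and -0.05 for all tested probes. With median scaling of the arrays in place of quantile normalisation the median over all tested probes moved to 0.08, that of the complex I genes to -0.19, and 38 of 42 genes were below 0. Relative to the median of all tested probes, 33 of 42 genes lay lower with quantile normalisation and 41 of 42 with median scaling. All 3 null arrays lay below all 3 wild type arrays for 10 of 42 genes, against 13.8% of named genes, and above them for 0 of 42, against 15.6%. The medians over the genes carry no test, and in bulk tissue fewer cells of a type and less RNA per cell cannot be told apart.

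**Figure D1:**
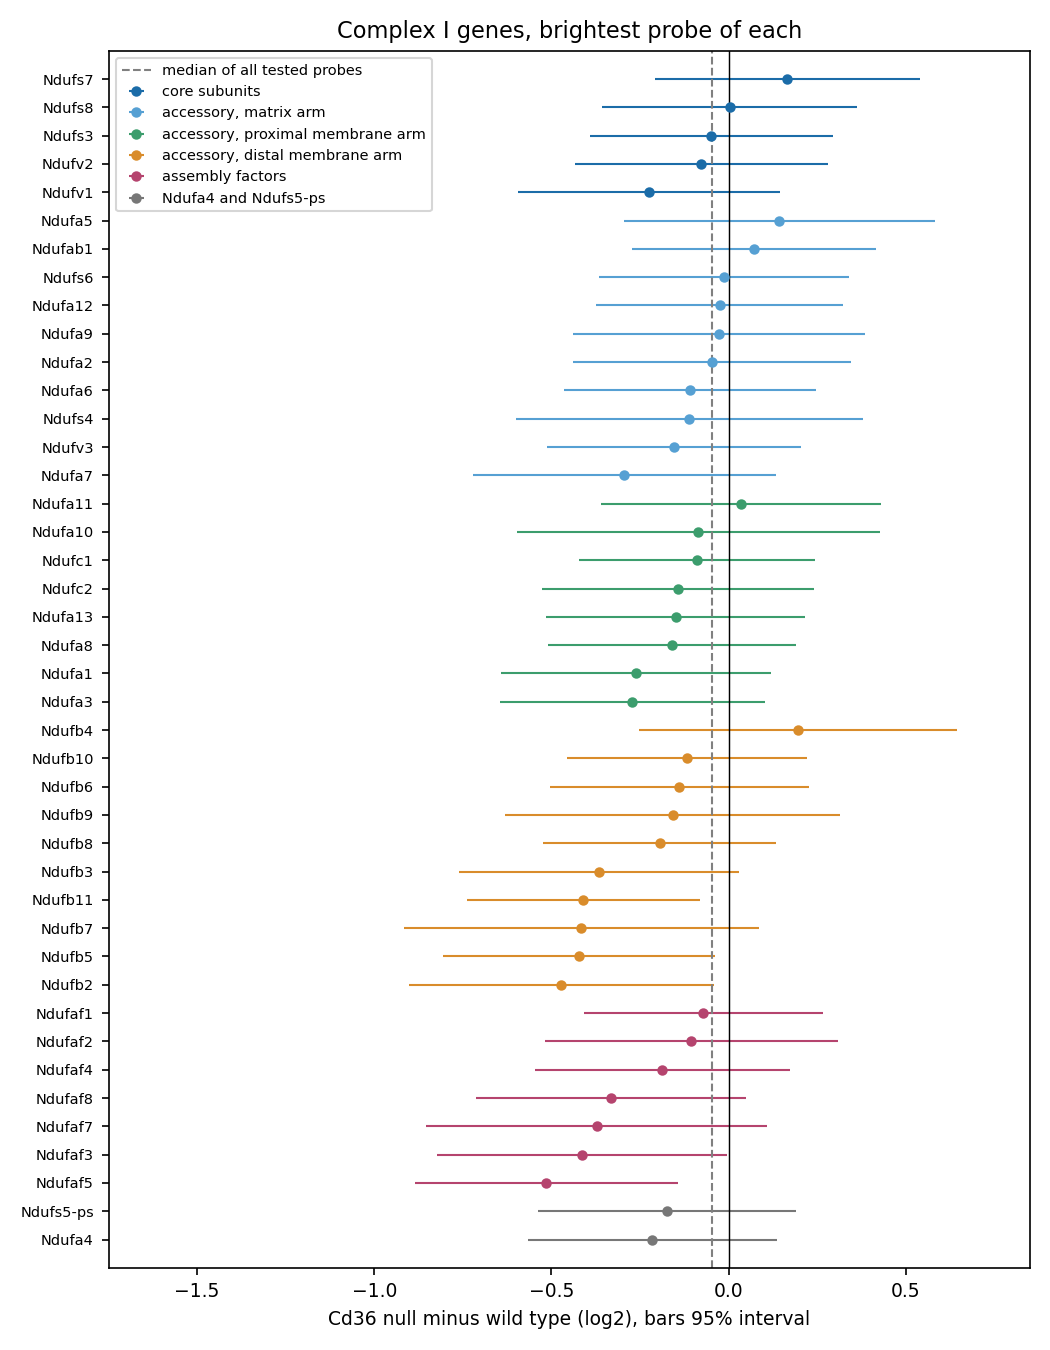
Difference between Cd36 null and wild type (log2, horizontal axis) for the brightest tested probe of 42 complex I genes, grouped by role, with 95% intervals from limma. Points run from -0.51 for Ndufaf5 to 0.20 for Ndufb4, and the dashed line marks the median of all tested probes at -0.05.

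Array by array, the median complex I gene stood at -0.18, -0.14 and -0.13 log2 on Cd36 null replicates 1 to 3 relative to its wild type mean, and at -0.05, -0.02 and 0.07 on wild type replicates 1 to 3. The median over all tested probes ran the same way at smaller size, at -0.06, -0.04 and -0.01 on null replicates 1 to 3 and within 0.01 of 0 on each wild type array. In both summaries each null array was lower than each wild type array, and null replicate 1 was the lowest. Of the 42 genes, 36, 32 and 33 lay below their wild type mean on the null arrays, and 23, 25 and 12 on the wild type arrays. Of all 10151 named genes, 53.9%, 53.1% and 49.8% did so on the null arrays and 50.6%, 51.3% and 48.9% on the wild type arrays. Null replicate 1 held the lowest value of the 6 arrays for 19 of 42 genes, against 22% of all named genes, and wild type replicate 3 the highest for 19 of 42, against 21.3%.

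**Figure D2:**
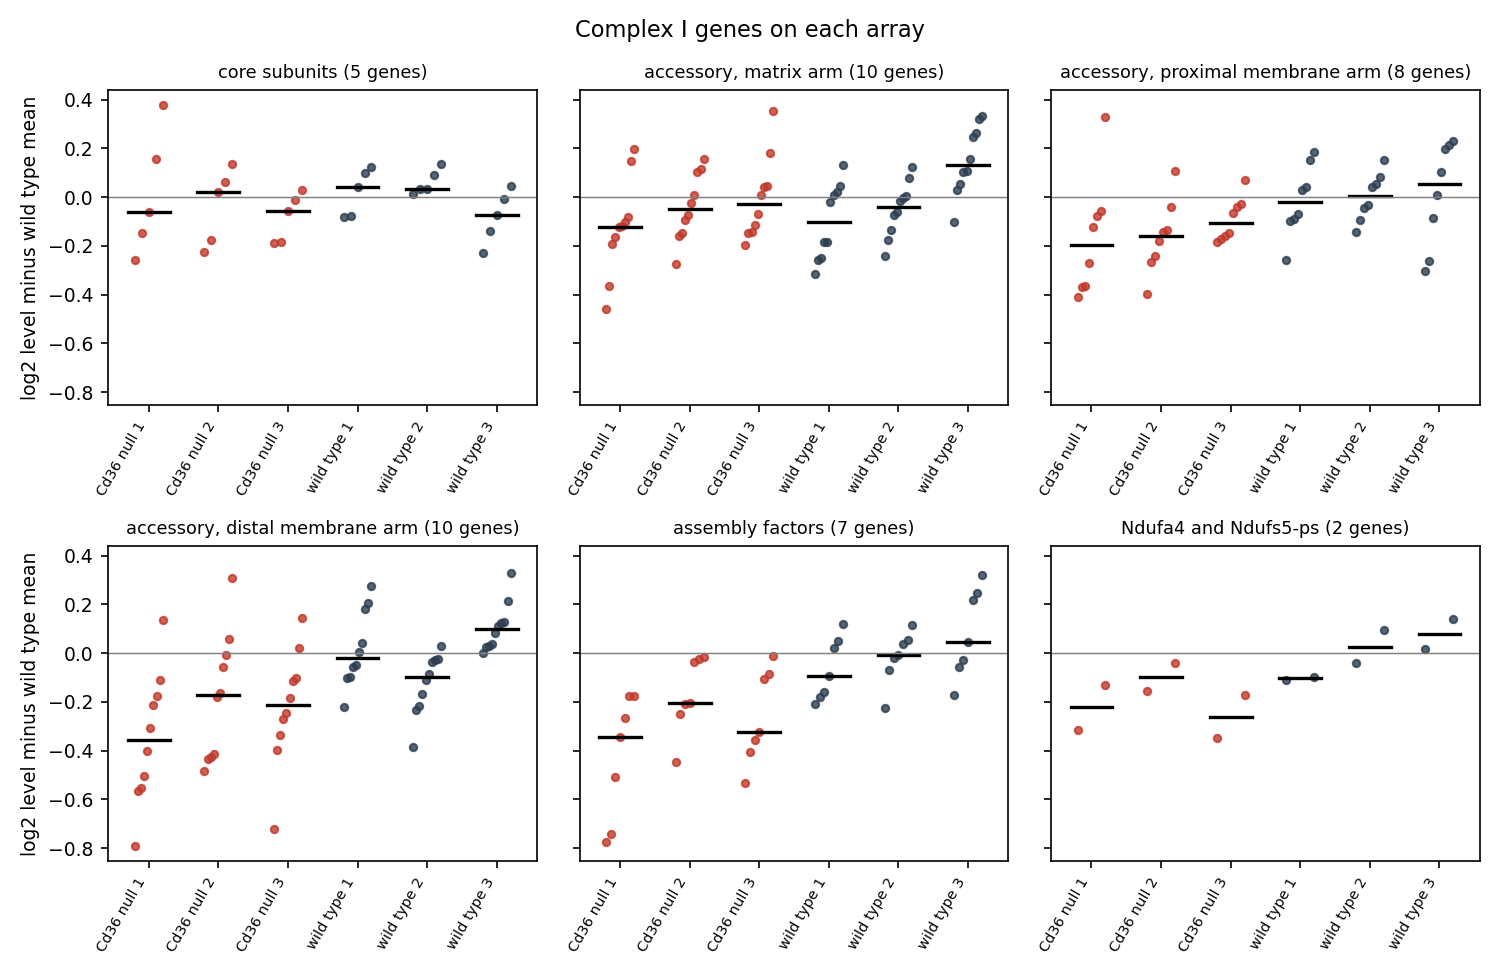
Level of each complex I gene on each array minus its wild type mean (log2, vertical axis), by role, with Cd36 null arrays in red, wild type arrays in dark blue and a black line at the median. Null medians stand at -0.35, -0.17 and -0.21 for the distal membrane arm, and core subunits scatter about 0 in both genotypes.

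Promoter sequences are shown for the gene with the probe that passed, the gene with the lowest difference, and the core and the distal subunit with the highest differences. They come from RefSeq (GRCm38.p6) and run from 250 bases before to 50 after the annotated start, and 39 of the 44 genes matched, with 41 such windows. Motifs of factors known for respiratory genes were searched on both strands, and capitals mark a match. No marked match overlapped one of another motif.
Ndufb8 (chr19:44555393-44555692, minus strand): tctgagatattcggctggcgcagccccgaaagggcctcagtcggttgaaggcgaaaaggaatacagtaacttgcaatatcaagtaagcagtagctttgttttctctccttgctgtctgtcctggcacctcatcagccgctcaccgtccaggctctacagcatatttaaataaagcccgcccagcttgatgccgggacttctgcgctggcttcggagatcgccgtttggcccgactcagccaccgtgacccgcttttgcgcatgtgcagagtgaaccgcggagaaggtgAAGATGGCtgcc
Ndufaf5 (chr2:140170396-140170695, plus strand): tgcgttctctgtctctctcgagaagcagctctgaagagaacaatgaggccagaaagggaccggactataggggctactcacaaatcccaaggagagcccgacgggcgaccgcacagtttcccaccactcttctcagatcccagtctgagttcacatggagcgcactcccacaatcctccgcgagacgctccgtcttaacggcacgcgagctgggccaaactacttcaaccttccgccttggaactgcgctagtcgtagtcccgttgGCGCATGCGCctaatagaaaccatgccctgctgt
Ndufs7 (chr10:80249199-80249498, plus strand): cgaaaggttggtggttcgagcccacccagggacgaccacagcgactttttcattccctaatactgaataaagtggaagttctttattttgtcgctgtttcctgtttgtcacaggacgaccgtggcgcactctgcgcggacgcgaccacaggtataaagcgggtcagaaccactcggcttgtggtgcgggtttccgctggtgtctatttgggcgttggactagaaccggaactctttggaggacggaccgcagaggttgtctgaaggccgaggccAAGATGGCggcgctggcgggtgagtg
Ndufb4 (chr16:37654319-37654618, minus strand): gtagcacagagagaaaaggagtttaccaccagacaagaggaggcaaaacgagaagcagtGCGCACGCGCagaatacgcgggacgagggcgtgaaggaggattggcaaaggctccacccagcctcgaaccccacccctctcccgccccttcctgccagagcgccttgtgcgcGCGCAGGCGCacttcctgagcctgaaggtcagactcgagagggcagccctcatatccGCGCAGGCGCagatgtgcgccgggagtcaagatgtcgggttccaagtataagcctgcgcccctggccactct
The capitals in Ndufb8 and Ndufs7 are the YY1 letters AAGATGGC, which begin at bases 39 and 25 after the start. Those in Ndufaf5 and Ndufb4 are matches to the NRF1 motif, present 1 time in Ndufaf5 and 3 times in Ndufb4. The NRF1 motif stood in 9 of 41 complex I windows (22.0%), against 4.6% of all 32851 promoter windows of the same length. The YY1 letters stood in 8 windows (19.5%, against 2.75%) and the GABP letters CCGGAAG in 6 (14.6%, against 8.86%). The ERR letters TCAAGGTCA were in 0 of 41 windows and in 0.423% of all. These matches describe letters only. The NRF1 motif occurs in the gene with the highest difference (Ndufb4) and in the gene with the lowest (Ndufaf5).

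The core subunits that carry out the chemistry of the matrix arm lay close to wild type. Of the 5 tested, none passed, and their median difference was -0.05 log2. Ndufv1, which binds NADH and its flavin, had levels of 14.31, 14.34 and 14.38 log2 in null tissue and 14.67, 14.70 and 14.34 in wild type (difference -0.22 ± 0.16, SE). Wild type replicate 3 overlapped the null arrays. Ndufv2, an iron-sulfur subunit beside it, had 14.02, 14.11 and 13.90 in null and 14.21, 14.10 and 13.95 in wild type, so the groups overlapped.

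In the quinone-reducing part, Ndufs3 had levels of 13.59, 13.80 and 13.68 log2 in null and 13.78, 13.77 and 13.67 in wild type. Ndufs8, which carries iron-sulfur clusters, had 13.38, 13.05 and 13.25 in null and 13.15, 13.26 and 13.27 in wild type. Ndufs7, which carries the cluster that hands electrons to ubiquinone, had 14.09, 13.84 and 13.70 in null and 13.63, 13.80 and 13.70 in wild type (difference 0.17 ± 0.17, SE, limma adjusted p = 0.624). Null replicate 1 was its highest array and null replicate 3 lay at the wild type level. The probe of Ndufs1, the large iron-sulfur subunit, was detected on 0 of 6 arrays, with raw intensities of 90.8, 92.1 and 92.2 in null and 97.7, 104.8 and 100.9 in wild type tissue. Such a signal says nothing of the level of its transcript.

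The accessory subunits of the matrix arm also lay near 0. None of 10 passed, and 8 were lower and 2 higher, where 53.9% of all named genes were lower. The median difference was -0.04 log2, close to that of all tested probes. Ndufs4, whose loss gives a Leigh-like encephalopathy in mice, had levels of 13.10, 13.32 and 13.64 in null and 13.15, 13.45 and 13.80 in wild type by its brightest probe. Its 4 probes differed by -0.20 to 0.00 log2, and the groups overlapped. Ndufa5 had 13.31, 13.55 and 13.75 in null and 13.13, 13.39 and 13.65 in wild type. Ndufab1, which is also the acyl carrier protein of mitochondrial fatty acid synthesis, had 14.71, 14.49 and 14.56 in null and 14.52, 14.45 and 14.57 in wild type. Both lay slightly above wild type on average (0.14 and 0.07 log2) with overlapping groups. The lowest of these subunits was Ndufa7, at -0.29 ± 0.19 log2 (SE). Ndufa2, Ndufa6, Ndufa9, Ndufa12, Ndufs6 and Ndufv3 differed by -0.15 to -0.01.

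The accessory subunits of the proximal membrane arm were lower in 7 of 8 genes, against 53.9% of all named genes. None passed, and the median difference was -0.15 log2. Ndufa3 had levels of 13.41, 13.58 and 13.66 in null and 13.72, 13.72 and 14.02 in wild type tissue. Ndufa1, an X-linked subunit needed for assembly, had 13.80, 13.90 and 14.02 in null and 14.08, 14.02 and 14.40 in wild type. By the brightest probe of both genes all null arrays lay below all wild type arrays, at differences of -0.27 ± 0.17 and -0.26 ± 0.17 (SE). That made 2 of 8 genes without overlap, against 13.8% of all named genes with null below. The second probe of Ndufa3 overlapped between the groups (-0.29 ± 0.19). Ndufa11, which lies where complex I meets complex III in supercomplexes, was the 1 gene on the higher side, with 12.33, 12.51 and 12.48 in null and 12.15, 12.45 and 12.62 in wild type. Ndufa8, Ndufa10, Ndufa13, Ndufc1 and Ndufc2 differed by -0.16 to -0.08.

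The accessory subunits of the distal membrane arm, the Ndufb genes around the far proton pumps, had lower values, though differences between roles carry no test. None of 10 passed, and the median difference was -0.28 log2. A lower null mean was seen in 9 of 10, against 53.9% of all named genes, and all null arrays lay below all wild type arrays in 4 of 10, against 13.8%. Ndufb2 had levels of 9.90, 9.63 and 9.39 in null and 10.30, 9.90 and 10.15 in wild type, with the highest null array at the lowest wild type array (difference -0.47 ± 0.19, SE, limma adjusted p = 0.192). Ndufb5 had 10.81, 10.89 and 10.98 in null and 11.52, 11.08 and 11.34 in wild type, without overlap (-0.42 ± 0.17, limma adjusted p = 0.190). Ndufb7, a subunit on the intermembrane side, had 10.11, 10.72 and 10.63 in null and 10.68, 10.79 and 11.23 in wild type, with overlap (-0.42 ± 0.22).

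By its brightest probe the X-linked Ndufb11 had the tightest groups, at 7.48, 7.44 and 7.48 log2 in null and 7.82, 7.91 and 7.91 in wild type (-0.41 ± 0.15, SE, limma adjusted p = 0.137). Its dim second probe had 5.51, 5.73 and 5.08 in null and 5.68, 5.57 and 6.25 in wild type, with overlap (-0.39 ± 0.24). Ndufb3 differed by -0.37 ± 0.17, without overlap. Ndufb4 was the 1 distal gene with a higher null mean, at 7.96, 8.13 and 7.96 in null and 8.09, 7.43 and 7.93 in wild type, where wild type replicate 2 was the low array (0.20 ± 0.20). Ndufb6, Ndufb9 and Ndufb10 differed by -0.16 to -0.12. The distal arm probes were dimmer (median signal 11.2 log2) than those of the accessory matrix arm (13.6), and the part of signal in the different medians was not tested.

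Ndufb8 was measured by a pair of probes that gave different sizes, and its second probe was the only complex I probe of 62 that passed, where 7.24% of all tested probes did. The second probe had levels of 8.03, 8.33 and 8.41 log2 in null tissue and 8.89, 8.89 and 9.18 in wild type. It fell by 0.73 on the log2 scale (SE 0.18, lower on all 3 null arrays, limma adjusted p = 0.0392). The brightest probe had 14.90, 14.91 and 14.83 in null and 15.11, 15.03 and 15.07 in wild type, also without overlap, and differed by -0.19 ± 0.15 (SE, limma adjusted p = 0.497). The second probe minus the brightest was -6.87, -6.58 and -6.42 on null arrays and -6.22, -6.14 and -5.89 on wild type arrays. That gap, singled out after the values were seen and given with no test, differed by -0.54 between genotypes. Among other settings, the call of the second probe ended with median scaling (adjusted p = 0.0717), with no filter (adjusted p = 0.0607) and when any 1 array was left out (adjusted p = 0.0579 to 0.105).

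Assembly factors named Nduf were lower in all 7 tested genes, against 53.9% of all named genes. None passed, and the median difference was -0.33 log2. This median depended on the setting, at -0.17 without Cd36 null replicate 1 and -0.44 without wild type replicate 1. Without background correction it was -0.20. With median scaling it was also -0.20, near the -0.19 of all complex I genes. All null arrays lay below all wild type arrays in 3 of 7, against 13.8%. Ndufaf5, which hydroxylates an arginine of Ndufs7, had levels of 8.82, 9.11 and 9.20 in null and 9.58, 9.60 and 9.50 in wild type, the largest difference among the 42 brightest probes (-0.51 ± 0.16, SE, limma adjusted p = 0.104). Its second probe had 7.26, 7.32 and 6.56 in null and 7.74, 7.40 and 7.80 in wild type (-0.60 ± 0.23). Both probes of Ndufaf5 separated the groups. Ndufaf5 passed in 3 alternatives, namely without background correction, with trend and robust estimation and with array weights (adjusted p = 0.0352, 0.0499 and 0.047). Ndufaf8, the partner of Ndufaf5, had 9.17, 9.26 and 9.11 in null and 9.30, 9.50 and 9.73 in wild type, without overlap (-0.33 ± 0.17).

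Ndufaf3, which acts on the quinone-reducing module, was dim and had 6.30, 6.60 and 6.27 log2 in null and 6.63, 6.74 and 7.05 in wild type (-0.41 ± 0.18, SE). Ndufaf7, a mitochondrial methyltransferase, had 8.70, 9.46 and 9.15 in null and 9.31, 9.59 and 9.52 in wild type, with overlap (-0.37 ± 0.21). Ndufaf4, a partner of Ndufaf3, had 10.15, 10.21 and 10.34 in null and 10.54, 10.48 and 10.25 in wild type. Wild type replicate 3 lay among the null arrays for Ndufaf4. Ndufaf1, which works in the membrane arm assembly complex, had 11.08, 11.23 and 11.25 in null and 11.31, 11.24 and 11.23 in wild type. Ndufaf2, a paralogue of Ndufa12, had 9.49, 9.62 and 9.56 in null and 9.57, 9.43 and 9.98 in wild type. These last genes overlapped between genotypes and lay nearest to wild type, at -0.07 and -0.11. The probe of Ndufaf6 was detected on 0 of 6 arrays, with raw intensities from 78.8 to 97.9.

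The remaining members stand outside the complex as now defined. Ndufa4, once counted in complex I and now placed in complex IV, had levels of 14.47, 14.63 and 14.61 in null and 14.69, 14.74 and 14.92 in wild type, without overlap (-0.21 ± 0.16, SE). The probe annotated to the pseudogene Ndufs5-ps gave a bright signal, with means of 12.81 ± 0.16 in null and 12.98 ± 0.10 in wild type (SD, n = 3 each). Ndufs5 itself had no probe of that name, and whether this probe also reads it was not tested. None of the 7 mitochondrially encoded subunits had a probe under the symbols searched.

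**Figure D3:**
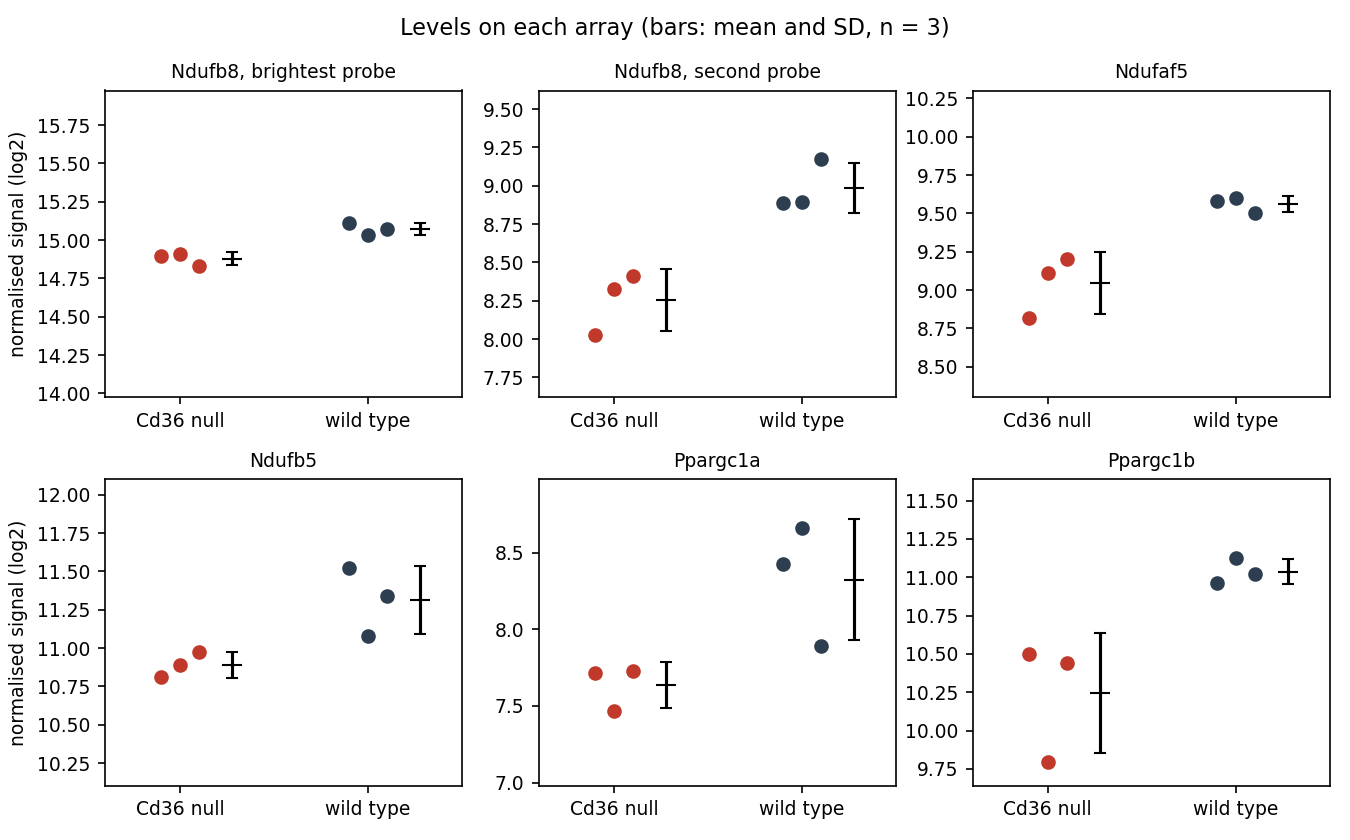
Normalised signal (log2, each panel 2 units high) on the Cd36 null and wild type arrays for both probes of Ndufb8, for Ndufaf5 and Ndufb5, and for the coactivators Ppargc1a and Ppargc1b, with mean and SD (n = 3). Groups do not overlap in any of the panels, and the gap is 0.19 for the brightest Ndufb8 probe, against 0.73 for its second probe.

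Several probes of a gene did not give equal differences. In 15 genes with more than 1 tested probe there were 20 pairs of the brightest with a further probe, and 18 pairs had the same sign. The dimmer probe gave the lower difference in 16 of 20 pairs, by a median of -0.09 log2, where it did so in 57.9% of 5191 pairs over all named genes (median -0.05). Besides Ndufb8, the widest gap was in Ndufs6, a zinc-binding subunit, at -0.01 for the brightest and -0.41 for the dimmer probe. Pairs of 1 gene share the brightest probe and are not independent. By the mean of a gene's probes, 0 of 42 genes passed and the median difference was -0.19.

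**Figure D4:**
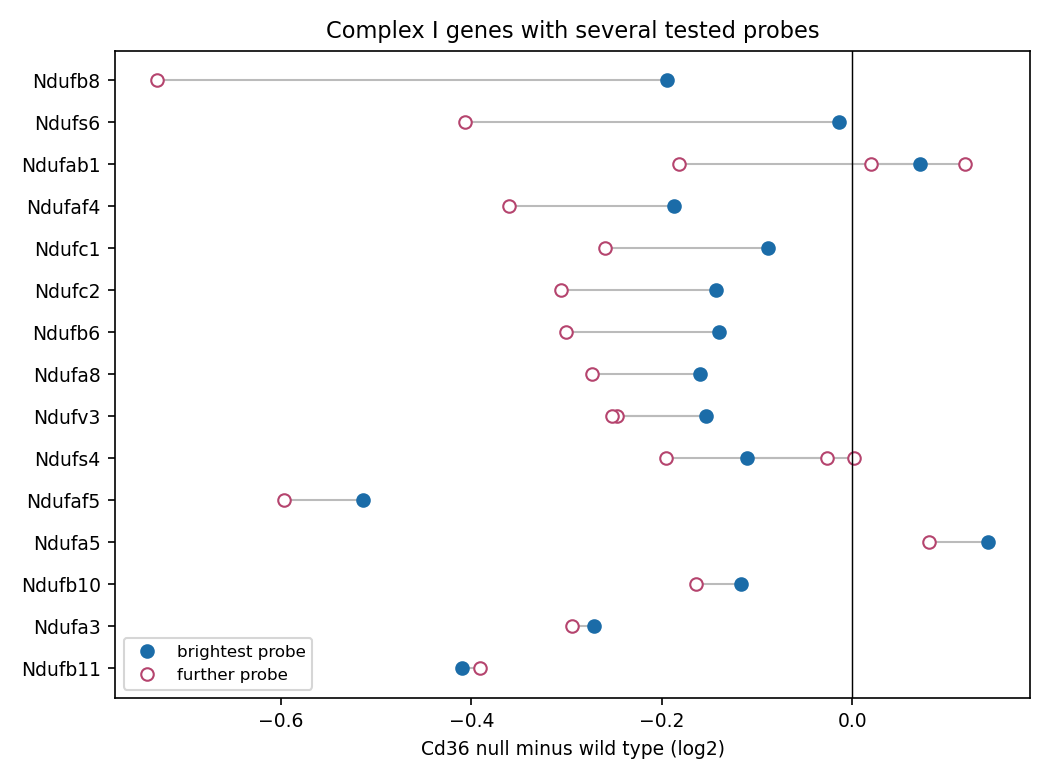
Difference between Cd36 null and wild type (log2, horizontal axis) for 15 complex I genes with several tested probes, brightest probe filled and further probes open. In 16 of 20 pairs the open point lies to the left of the filled one.

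Dimmer complex I genes had lower differences. The 28 complex I genes with a mean signal of at least 12 log2 had a median difference of -0.11, and the 14 dimmer ones -0.35. All 720 tested probes with a signal of at least 12 had a median of -0.02 and 53.3% were below 0, against 82.1% of the 28 complex I genes. Raw intensities of the brightest probes ran from 162 to 38021. The 14 dimmer genes were all assembly factors (median signal 9.3 log2) or distal arm subunits, so signal and role cannot be told apart among them. The distal genes Ndufb3, Ndufb6 and Ndufb8 had brightest probes above 12 log2 and differed by -0.37, -0.14 and -0.19. No median over all dim probes was taken, and the part of signal in these differences was not tested.

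**Figure D5:**
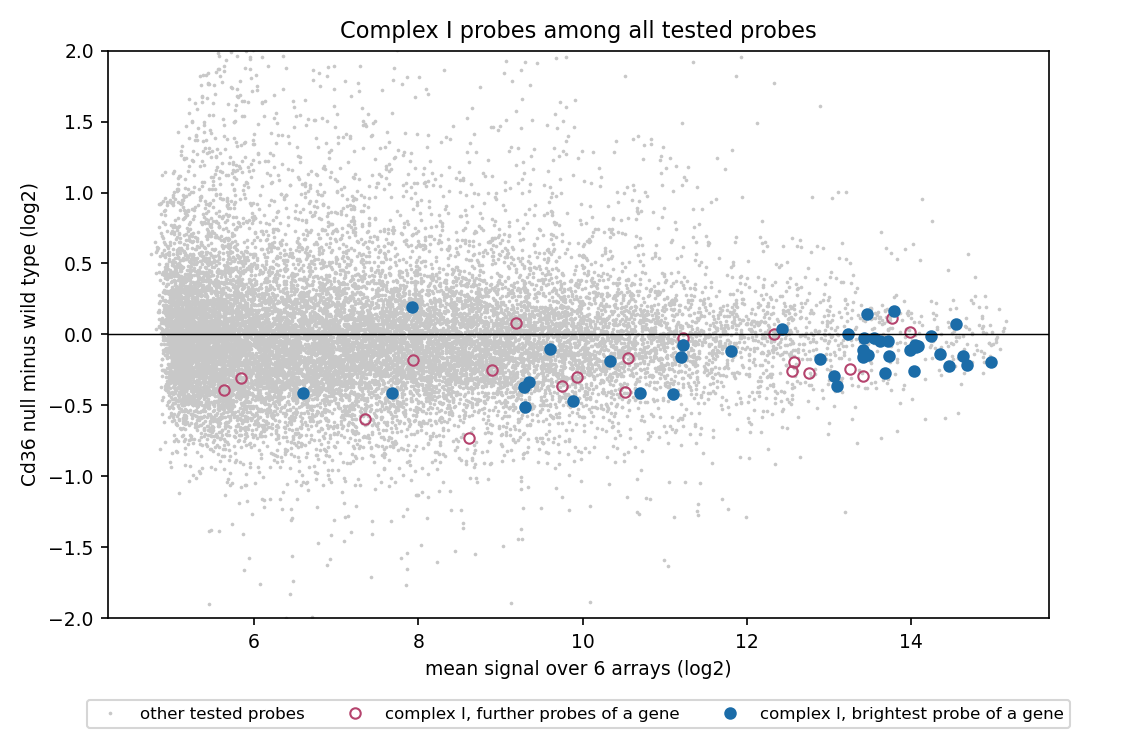
Mean signal over the 6 arrays (log2, horizontal axis) against the difference between Cd36 null and wild type (log2, vertical axis) for all 17912 tested probes, with the complex I probes in colour. Complex I points gather at high signal just below 0, and 132 other probes beyond 2 log2 units in either direction are not drawn.

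Genes that work with the complex did not pass either, where 7.84% of all named genes did. At that share, 0 in a list this short does not set it apart. Of 12 assembly genes without the Nduf prefix that had a probe, 11 were tested and 0 passed, with a median of -0.19 log2. Tmem186 differed by -0.49 ± 0.21, Timmdc1 by -0.35 ± 0.18 and Acad9, a partner of Ndufaf1, by 0.33 ± 0.18 (SE). Of 10 tested enzymes that also pass electrons to coenzyme Q, 0 passed (median -0.18), with Gpd2, the mitochondrial glycerol-phosphate dehydrogenase, at -0.52 ± 0.23, Sqor at -0.41 ± 0.20 and the complex II subunit Sdhd at -0.34 ± 0.16. Of 10 tested genes of general mitochondrial content, such as citrate synthase, 0 passed, and their median was 0.07. They lay on both sides of 0, from -0.49 to 0.28. The 3 of smallest p were lower, with Tomm40, the channel of the outer membrane import complex, at -0.49 ± 0.17, the prohibitin Phb2 at -0.33 ± 0.16 and the import receptor Tomm22 at -0.33 ± 0.19 (SE).

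Regulators of nuclear respiratory genes did not pass in any of 9 tested genes (median -0.03), where 7.84% of all named genes did. Their 3 members of smallest p had lower null values. Ppargc1b, a coactivator of mitochondrial genes, had levels of 10.50, 9.79 and 10.44 log2 in null and 10.96, 11.13 and 11.02 in wild type (-0.79 ± 0.21, SE, limma adjusted p = 0.0572). Its relative Ppargc1a had 7.72, 7.46 and 7.73 in null and 8.43, 8.66 and 7.89 in wild type (-0.69 ± 0.22, limma adjusted p = 0.099). Esrra, the nuclear receptor that works with both, had 10.96, 11.09 and 11.07 in null and 11.42, 11.39 and 11.43 in wild type (-0.37 ± 0.15, limma adjusted p = 0.177). In these 3 genes, picked by their p in the same data, all null arrays lay below all wild type arrays, against 13.8% of all named genes. The other tested regulators differed by -0.19 to 0.14. Tfam, the mitochondrial transcription factor, stood at -0.03.

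Markers of other cells also differed between the arrays, where 5.73% of all named genes rose and 2.11% fell. Of 8 tested macrophage markers 7 rose, and their summed linear signal was 13617 to 14895 on null arrays and 2034 to 2646 on wild type arrays, with Itgam not detected on any array. Of 6 tested hepatocyte markers 5 rose, with sums of 1890 to 18538 on null and 212 to 699 on wild type arrays, and Alb, Apob and Fgb were not detected on any array. Fga, Serpina1a and the macrophage marker Trem2 were detected on 3 null and 0 wild type arrays, and Ahsg on 3 and 1. These genes entered the test only through the null group, where they were high. Of 11 tested muscle markers 0 passed, with sums of 36765 (null replicate 3) to 159837 on null and 112855 to 119983 on wild type arrays. Their median stood at 0.55, -0.06 and -1.79 log2 on null replicates 1 to 3, while that of the complex I genes was -0.18, -0.14 and -0.13. Without null replicate 3 the complex I median was -0.15, and 0 of 42 genes passed. The part of other cells in the complex I differences was not tested.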

How the data were processed

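Per the file headers, the deposited scanner table gives a linear intensity per probe and array, without normalisation, and a detection p-value. The authors' deposited value table is in log2 units. The submitters' processing notes name limma and no version, and the normalisation steps are not stated in the sources used here. Values from neqc at an offset of 50 matched that table to within 0.024 log2, so its scale and direction are known. Medians of its columns were 5.92 to 5.93.

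Intensities were corrected and quantile-normalised by neqc in limma 3.58.1 (R 4.3.3), with offset 16 and the background taken from the detection p-values. The offset shrinks differences of dim probes. A probe was tested if at least 3 arrays had a detection p below 0.05 (17912 probes, of 46237 in the scanner table). lmFit and eBayes compared the genotypes, with Benjamini-Hochberg adjustment over all tested probes and a threshold of 0.05. A gene is given by its brightest tested probe. Every adjusted p comes from this limma fit unless named otherwise, and the fit was tested on simulated data.

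Of the authors' probes, 34875 had 1 gene symbol, 18 several and 10374 none in the annotation used here, so further Nduf probes may be unnamed. The member genes and lists were chosen with earlier results of these data known. The rule gave values on each array for genes or probes past the threshold, the 5 largest differences each way, the tested core subunits, Ndufs4, Ndufa4, the tested assembly factors, and genes whose probes differ in direction by over 0.5 log2, of which there were none. Ndufa1, Ndufa3 and Ndufb11 were added after their values were seen. Alternatives were the authors' values, another offset, median scaling, no background correction, other filters, variance models and array weights, the mean of a gene's probes, a replicate block and leaving out each array. Deviations of same-numbered arrays gave no sign that the numbers pair the samples, but so few arrays cannot exclude it.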

Additional observations from a re-analysis of the deposited data

How the results depend on the processing

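No complex I gene passed in the main setting nor in 13 of 16 alternatives; the count was 1 (Ndufaf5) without background correction, with trend and robust estimation and with array weights, and 0 whichever array was left out. The complex I median ranged from -0.19 (median scaling, mean of a gene's probes) to -0.11 log2 (without Cd36 null replicate 1), and was below the median of all tested probes in each setting. Over alternatives, 30 of 42 genes kept their sign and 12, between -0.16 and 0.07 log2 here, changed it without passing. The second Ndufb8 probe passed in 6 of 15 alternatives and stayed below 0 in all 15.

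Over all tested probes, 1296 passed in the main setting, 2388 with array weights, and 581 to 1012 when 1 array was left out (704 without wild type replicate 1, 581 without wild type replicate 2, 732 without Cd36 null replicate 2). The cause was not tested beyond the fewer arrays. With the replicate number as a block, 868 probes passed, 0 of 42 complex I genes and no Ndufb8 probe (adjusted p = 0.0565). Deviations of same-numbered arrays correlated at 0.08, -0.02 and 0.03, and those of differently numbered arrays at -0.08 to 0.07. They gave no sign of pairing, but 3 arrays a genotype cannot exclude it. A slide block was not run, since the files name no slides. With 3 arrays a genotype and standard errors of 0.15 to 0.23 log2, genes that did not pass are not shown to be equal.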
